A study of Mus musculus with 18 samples.

Results

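The expression of 10 astrocyte genes, 4 of astrocyte reactivity (Gfap, Vim, Serpina3n and Cd14) and 6 of the homeostatic state (Aqp4, Slc1a2, Aldoc, Glul, Aldh1l1 and S100b), is described in the cortex of mice after spreading depolarization (SD). They were taken by name as the rows listed in all 6 deposited tables, and all 10 members were among the 12787 genes that met this, of 13479 listed in any table. SD is a wave of strong depolarization that crosses the cortex slowly and involves neurons as well as glia. Healthy female mice aged 7 to 8 weeks had 4 waves within 2 h, 30 min apart and seen by imaging of the intrinsic optical signal. In the KCl system, focal KCl was applied to wild-type C57BL/6 mice and NaCl to their sham group. In the optogenetic system, light of 2 mW for 20 s was given to C57BL/6 mice with the genotype Thy1-ChR2-YFP heterozygous, in which the Thy1 promoter drives a channel opened by light in neurons, and these mice had a sham group of their own. Each system holds 3 libraries of the left cortex, which carried the SD, 3 of the right, contralateral cortex of these mice and 3 from sham mice, so that 18 libraries come from 12 mice. The stimulus, the side and SD cannot be told apart in these groups, and neither the time of tissue collection nor the sham hemisphere is given in the sources used here.

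Astrocytes clear glutamate and potassium from around synapses, supply neurons with metabolites and set the water balance at blood vessels. After injury or strong activity they can become reactive, a state marked by intermediate filaments and secreted proteins. Of the reactivity genes, Gfap and Vim encode intermediate filaments, Serpina3n a secreted serine protease inhibitor, and Cd14 a co-receptor of Toll-like receptors for bacterial lipopolysaccharide that microglia and macrophages also express. Of the homeostatic genes, Aqp4 encodes the water channel of astrocyte end-feet, Slc1a2 the main glutamate transporter, Glul glutamine synthetase, Aldoc a glycolytic aldolase, Aldh1l1 an enzyme of folate metabolism and S100b a calcium-binding protein.

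The promoters of the 3 reactivity genes that have an entry are shown because reactivity genes are classically driven by signals such as STAT3. They run from 250 bases before to 50 bases after the start given by RefSeq (GRCm38.p6), 5′ to 3′ on the strand of the gene. Gfap lies at chr11:102897151-102897450 (minus strand), Vim at chr2:13574061-13574360 (plus strand) and Serpina3n at chr12:104406458-104406757 (plus strand). The RefSeq starts of Gfap and Vim lie inside the span the deposited tables give these genes. Capitals mark a match to the STAT motif TTCNNNGAA.
Gfap: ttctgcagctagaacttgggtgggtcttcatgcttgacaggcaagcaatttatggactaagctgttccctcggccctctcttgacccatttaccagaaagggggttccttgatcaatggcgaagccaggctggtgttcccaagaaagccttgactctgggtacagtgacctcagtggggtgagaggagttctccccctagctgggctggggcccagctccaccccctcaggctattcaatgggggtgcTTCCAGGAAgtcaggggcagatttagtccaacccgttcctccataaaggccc
Vim: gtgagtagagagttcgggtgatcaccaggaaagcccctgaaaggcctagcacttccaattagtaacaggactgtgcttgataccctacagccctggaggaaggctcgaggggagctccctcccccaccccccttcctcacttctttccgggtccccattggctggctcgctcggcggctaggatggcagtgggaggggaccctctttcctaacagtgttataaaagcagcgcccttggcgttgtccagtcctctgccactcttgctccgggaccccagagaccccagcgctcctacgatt
Serpina3n: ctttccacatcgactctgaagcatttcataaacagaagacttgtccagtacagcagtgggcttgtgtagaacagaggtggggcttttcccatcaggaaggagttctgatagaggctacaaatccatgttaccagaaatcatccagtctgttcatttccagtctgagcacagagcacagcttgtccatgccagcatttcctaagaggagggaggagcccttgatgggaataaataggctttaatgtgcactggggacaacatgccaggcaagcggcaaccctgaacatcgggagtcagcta
Entries were found for 8 of the 10 members, with Cd14 and Aqp4 having none. On both strands, Gfap had 1 STAT match, starting at base -2 relative to the start, and of the 2 entries of Aldoc the second had 2 matches, at -124 and -83. The STAT motif was found in 8.298% of the 32851 promoters of the same length. No member entry held the AP-1 motif TGANTCA, found in 7.808% of promoters, or the CRE motif TGACGTCA, found in 1.79%. These are matches of letters and say nothing of binding.

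Expression was deposited as FPKM, fragments per kilobase of transcript, scaled to the mapped fragments of a library, which corrects for transcript length and lets genes be set side by side. All 10 members were above 0 in each library and passed the filter on low values. The highest was Glul, with a median of 379.8 FPKM over the 18 libraries, followed by Slc1a2 (216.2), Aldoc (155.9), S100b (66.6), Gfap (30.3), Aqp4 (26.2), Aldh1l1 (10.5), Serpina3n (6.88), Vim (4.95) and Cd14 (1.58). Each neighbouring pair held this order in 18 of 18 libraries, except Slc1a2 over Aldoc in 17 and Gfap over Aqp4 in 13. That last pair differed by system, with Gfap the higher in 9 of 9 optogenetic libraries and in 4 of 9 KCl libraries, where it did not differ beyond its spread. The coefficient of variation over the libraries was lowest for Glul, at 3.52%, and highest for Cd14, at 39.1%. The FPKM of 8 astrocyte markers (6 of the members with Slc1a3 and Gja1) summed to between 540.3 and 664.5 per library, with none of them at 0, so the labelled tissue held astrocyte transcripts in each library. In whole cortex, fewer astrocytes and less RNA per astrocyte cannot be told apart.

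**Figure D1:**
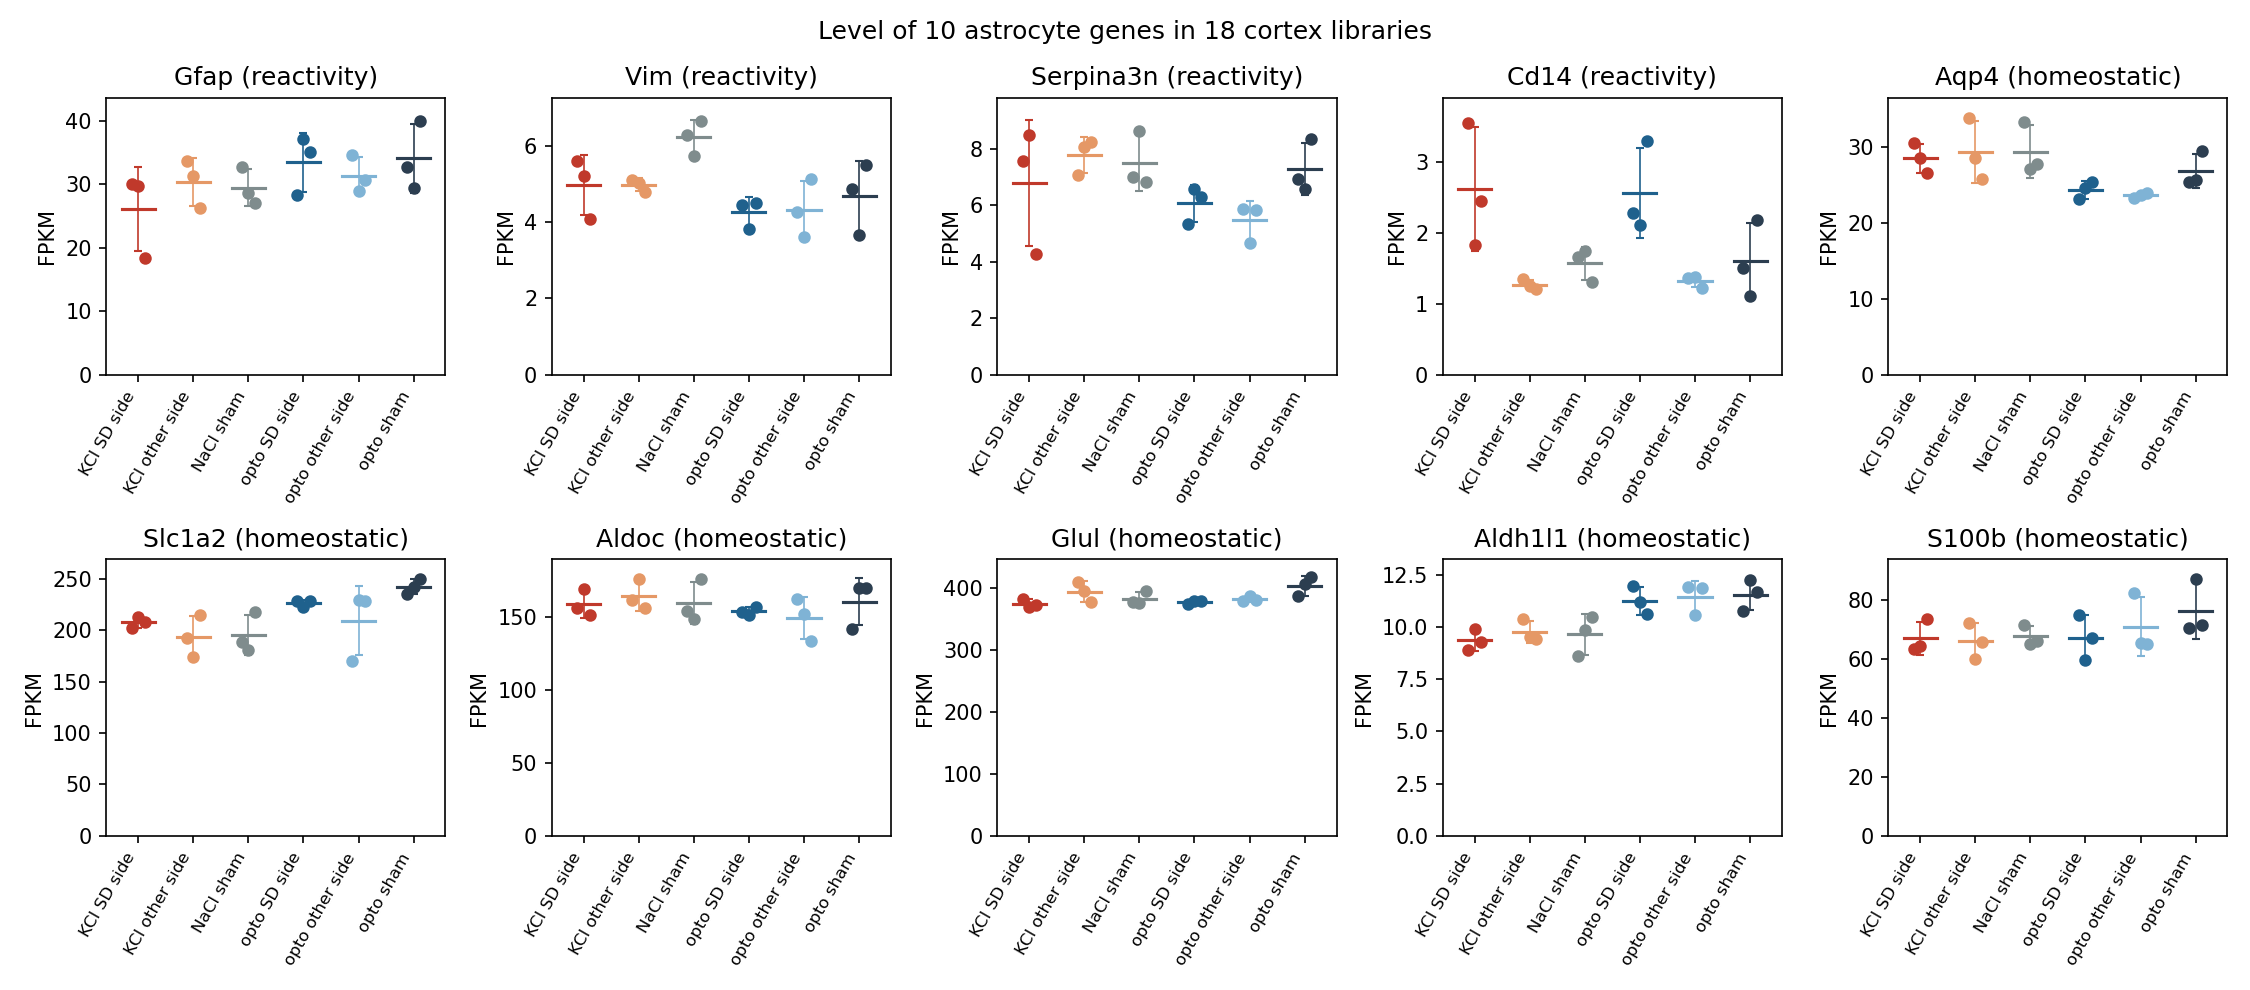
FPKM (linear y axis from 0) of each gene in the 6 groups (x axis), with 1 point per library, a line for the mean and bars for the SD of 3 libraries. Cd14 is higher on the SD side than on the other side in both systems, from 1.83 to 3.55 against 1.20 to 1.34 FPKM in the KCl system, and 1 KCl library of the SD side is low in Gfap, Vim and Serpina3n.

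One library stood apart in the reactivity genes. The SD side of KCl mouse 3 was the lowest of its system in Gfap, Vim and Serpina3n, while its Cd14 lay between those of the other 2 libraries of its group. Values are given with and without it below where it decides the direction. The FPKM of the listed genes added up to 223564 to 237318 in KCl-system libraries and 217205 to 225813 in optogenetic ones, and the files hold no read counts. Markers of choroid plexus and ependyma varied most between libraries, from 8.27 to 1142 FPKM in sum, and those of red blood cells from 203.8 to 1031 FPKM.

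The comparison of the 2 sides of each stimulated mouse sets the cortex that had the stimulus and SD against the other side within an animal. Cd14 (ENSMUSG00000051439.6, chromosome 18, 36725074 to 36726736 on GRCm38, minus strand) rose, and no other member passed the test. In KCl mice 1, 2 and 3 Cd14 was 3.55, 1.83 and 2.45 FPKM on the SD side and 1.34, 1.25 and 1.20 FPKM on the other side. In optogenetic mice it was 2.28, 2.10 and 3.29 FPKM on the SD side and 1.37, 1.38 and 1.22 FPKM on the other side. The SD side was higher in 6 of 6 mice, by a ratio of 1.47 to 2.70, and the sides did not overlap in either system. Over all 6 mice, limma gave a log2 fold change of 0.76 (SE 0.12, 95% interval 0.49 to 1.03, Benjamini-Hochberg adjusted p = 0.0209 over 12894 genes), a change larger in size than that of 99.4% of the genes tested.

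In that comparison 1 of 10 members was called at an adjusted p under 0.05, against 1.61% of all genes. An unadjusted p under 0.05 by limma was likewise found for 1 member, Cd14, against 14.3% of all genes. Members that lay on the same side in each of the 6 mice were Cd14, higher, and Glul, lower, and 10.1% of all genes did so. The call of Cd14 was lost without KCl mouse 1 (adjusted p = 0.0701), KCl mouse 3 (0.0707), optogenetic mouse 1 (0.0592) or optogenetic mouse 3 (0.0618), although the log2 fold change stayed between 0.68 and 0.82 whichever mouse was left out, with an adjusted p of 0.0338 to 0.0707 by limma. The number of genes called over all genes also fell in these smaller fits, from 207 to between 107 and 144.

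Within a system of 3 mice the fits did not pair the sides of a mouse. There Cd14 differed between the sides by 0.78 with KCl (SE 0.18, limma adjusted p = 0.208) and by 0.73 with light (SE 0.20, adjusted p = 0.281), and neither was called. The KCl effect minus the optogenetic effect was 0.05 (95% interval -0.55 to 0.66), so the interval includes differences close in size to the effect. Against sham, Cd14 was 1.65, 1.74 and 1.30 FPKM in the 3 NaCl mice and 1.50, 1.11 and 2.17 FPKM in the 3 optogenetic sham mice. The SD side lay above each sham library in the KCl system, whereas in the optogenetic system 1 sham library (2.17 FPKM) exceeded the lowest library of the SD side (2.10 FPKM). Its log2 fold change against sham was 0.56 in both systems (adjusted p = 0.504 with KCl and 0.481 with light), and the other side against sham was -0.22 and -0.17.

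**Figure D2:**
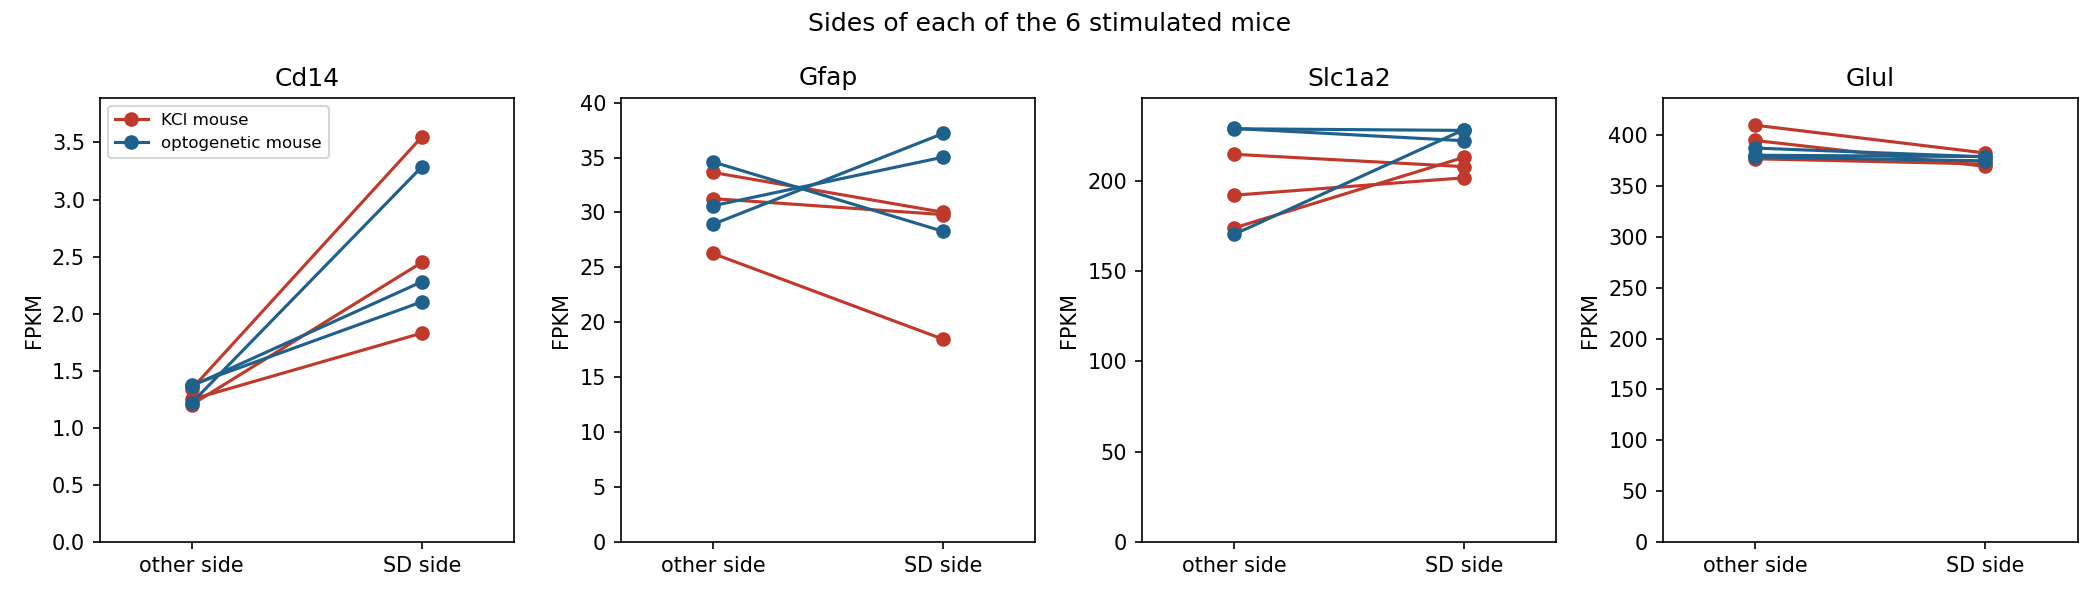
FPKM (linear y axis from 0) of 4 genes on the other side and the SD side (x axis), with 1 line per stimulated mouse, red for KCl and blue for light. Cd14 goes up in 6 of 6 lines and Glul goes down slightly in each, while the lines of Gfap and Slc1a2 cross.

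Other cell types that express Cd14 were measured beside it. The 10 microglia markers summed to 171.8 to 184.7 FPKM on the SD side and 162.6 to 189.1 FPKM on the other side with KCl, and to 164.7 to 179.9 and 168.1 to 182.9 FPKM with light. These ranges overlapped in both systems. None of the 10 was called between the sides of the 6 mice. By limma 1 was higher and 1 lower at an unadjusted p under 0.05, against 14.3% of all genes. The log2 fold changes of the 10 ran from -0.90 to 0.14, so the sum does not stand for each of them. The lowest value between the sides was -0.95 with KCl and -0.84 with light. Of 10 markers of monocytes, neutrophils and other macrophages, 4 are listed (S100a8, S100a9, Lyz2 and Mrc1). They summed to 4.91 to 10.3 FPKM on the SD side and 5.96 to 7.47 FPKM on the other side with KCl, and to 6.09 to 8.96 and 5.16 to 7.01 FPKM with light. Their median log2 fold change over the 6 mice was 0.30, with none called and none at an unadjusted p under 0.05 by limma. Choroid and ependymal markers did not overlap between the sides of KCl mice (476.4 to 596.4 against 17.6 to 474.1 FPKM) but did in optogenetic mice (10.3 to 485.0 against 28.0 to 617.8 FPKM). Meningeal markers likewise were at 15.2 to 25.8 against 10.1 to 12.9 FPKM with KCl and 9.07 to 11.2 against 7.90 to 13.4 FPKM with light. With KCl 3 of 5 meningeal markers were higher on the SD side, with 1 at an unadjusted p under 0.05 by limma, against 9.88% of all genes. The log2 fold changes of the 5 ran from -0.29 to 1.19 with a median of 0.00, so the sum does not stand for all of them. Of 8 neuron markers 1 was called higher over the 6 mice, the neurofilament gene Nefl (0.21, SE 0.03, limma adjusted p = 0.0159), against 1.61% of all genes called. Of 5 red blood cell markers 4 were lower at an unadjusted p under 0.05 by limma, against 14.3% of all genes, with none called. The part of these cells in the Cd14 result was not tested.

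The other 3 reactivity genes did not pass the test in any comparison. Gfap (ENSMUSG00000020932.14, chromosome 11, 102887336 to 102900912, minus strand), the most used marker of reactive astrocytes, was 30.0, 29.8 and 18.5 FPKM on the SD side of the KCl mice, 33.6, 31.3 and 26.3 FPKM on their other side and 32.7, 28.7 and 27.1 FPKM in NaCl sham mice. With light it was 28.3, 37.2 and 35.0 FPKM on the SD side, 34.6, 28.9 and 30.6 FPKM on the other side and 32.7, 29.5 and 40.1 FPKM in sham mice. The groups overlapped in each system, and 2 of 6 mice had more Gfap on the SD side.

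Gfap differed between the sides of the 6 mice by -0.08 on the log2 scale (95% interval -0.32 to 0.17, limma adjusted p = 0.795). As a fold this interval runs from 0.800 to 1.12, so a larger rise than that lies outside it. Without KCl mouse 3 the value was 0.01 (adjusted p = 0.984), so its sign rests on that mouse. Against sham the log2 fold change was -0.20 (95% interval -0.61 to 0.20) with KCl and -0.02 (-0.32 to 0.28) with light. Without the low KCl library the KCl value was 0.02, so its sign rests on that library.

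Vim (ENSMUSG00000026728.9, chromosome 2, 13573927 to 13582826, plus strand) was 5.59, 5.21 and 4.09 FPKM on the SD side of the KCl mice, 5.11, 5.03 and 4.80 FPKM on the other side and 6.29, 5.74 and 6.65 FPKM in NaCl sham mice. Both sides of the stimulated mice lay below each sham library. The log2 fold change was -0.31 on the SD side (SE 0.11, unadjusted p = 0.0194, adjusted p = 0.543) and -0.29 on the other side (SE 0.11, unadjusted p = 0.0241, adjusted p = 0.877) by limma, and neither was called. Without the low KCl library the value for the SD side was -0.19. Endothelial cells also express Vim, and the sum of 8 endothelial markers was 65.9 to 70.0 FPKM on the SD side, 71.5 to 74.6 FPKM on the other side and 73.7 to 77.9 FPKM in NaCl sham mice, so that the SD side did not overlap with sham there either. Meningeal fibroblasts express Vim as well. Of 5 of their markers 3 were lower and 1 higher on the SD side at an unadjusted p under 0.05 by limma (median log2 fold change -0.47), against 7.92% of all genes. On the other side 2 were lower (median -0.44), against 5.60%, and none was called. Their sum was 15.2 to 25.8 FPKM on the SD side and 11.7 to 17.6 FPKM in NaCl sham mice, so it did not follow the median. Choroid and ependymal markers were higher on the SD side than in sham for 8 of 8 (median 0.65), with none called. The part of these cells in the Vim values was not tested.

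In optogenetic mice Vim was 4.45, 3.81 and 4.51 FPKM on the SD side, 4.25, 3.61 and 5.12 FPKM on the other side and 4.86, 3.66 and 5.49 FPKM in sham mice. The 3 groups overlapped. Between the sides of the 6 mice Vim differed by -0.01 (95% interval -0.15 to 0.12), the narrowest interval of the 4 reactivity genes. The SD side was higher in 4 of the 6 mice, and without KCl mouse 3 the value was 0.02 (adjusted p = 0.893), so its sign too rests on that mouse.

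Serpina3n (ENSMUSG00000021091.8, chromosome 12, 104406729 to 104414329, plus strand), which rises strongly in reactive astrocytes of mouse injury models, was 7.57, 8.49 and 4.27 FPKM on the SD side of the KCl mice, 7.05, 8.06 and 8.22 FPKM on the other side and 7.01, 8.63 and 6.82 FPKM in NaCl sham mice. The groups overlapped, and the log2 fold change of the SD side against sham, -0.18, became 0.10 without the low library. With light it was 5.33, 6.57 and 6.28 FPKM on the SD side, 5.86, 4.67 and 5.83 FPKM on the other side and 6.94, 6.57 and 8.33 FPKM in sham mice. The other side lay below each sham library, at -0.39 (SE 0.12, limma unadjusted p = 0.0103, adjusted p = 0.843). The SD side gave -0.24 against sham (SE 0.12, adjusted p = 0.612), and the 6 mice gave -0.05 between the sides (95% interval -0.39 to 0.30). The SD side was higher in 4 of the 6 mice, and without KCl mouse 3 the value between the sides was 0.12 (adjusted p = 0.580), so its sign rests on that mouse. Red blood cell markers were also lower in both sides of optogenetic mice than in their sham mice, at 203.8 to 324.4 FPKM on the SD side, 253.4 to 399.0 FPKM on the other side and 414.3 to 1031 FPKM in sham mice, and their part in these values was not tested.

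**Figure D3:**
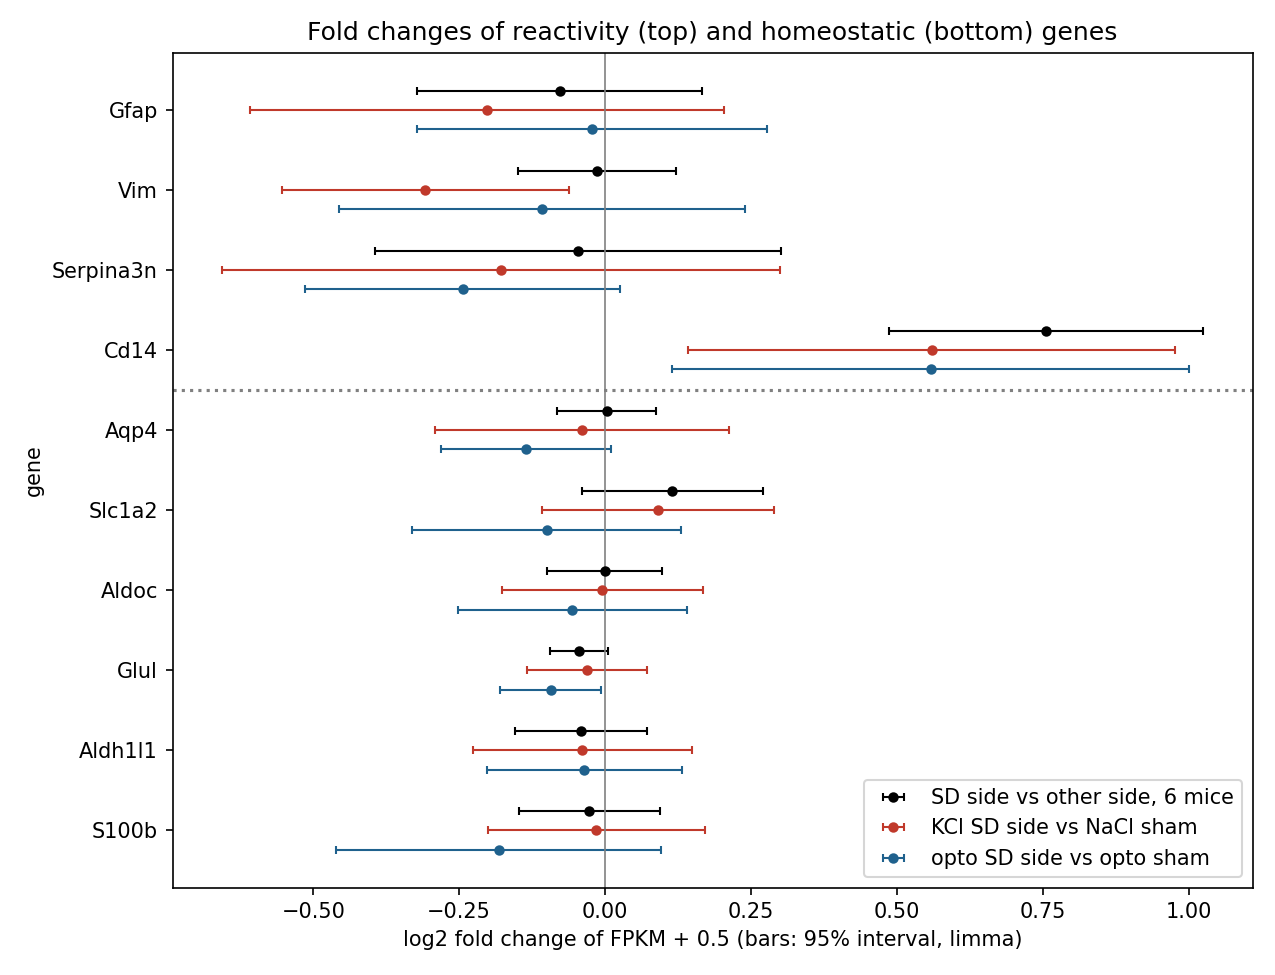
Log2 fold change (x axis) of each gene (y axis) for the SD side against the other side in 6 mice and against sham in each system, with 95% intervals from limma. The interval of Cd14 lies above 0 in the 3 comparisons, and the other reactivity genes and the homeostatic genes sit near or below 0, with Gfap at -0.08 in the 6 mice.

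Of the homeostatic genes, 0 of 6 were called in any comparison. Slc1a2 (ENSMUSG00000005089.15, chromosome 2, 102658659 to 102790784, plus strand) was 201.8, 213.1 and 207.9 FPKM on the SD side of KCl mice, 192.1, 173.9 and 214.8 FPKM on the other side and 188.7, 180.3 and 217.6 FPKM in NaCl sham mice. With light it was 228.5, 222.3 and 228.0 FPKM on the SD side, 170.3, 229.1 and 228.9 FPKM on the other side and 235.5, 242.3 and 249.8 FPKM in sham mice. Only in the optogenetic system did groups not overlap, with both sides below each sham library. Between the sides of the 6 mice it differed by 0.12 (95% interval -0.04 to 0.27, limma adjusted p = 0.489), the largest value among the homeostatic genes.

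Glul (ENSMUSG00000026473.15, chromosome 1, 153899944 to 153909723, plus strand), whose product turns the glutamate taken up by astrocytes into glutamine, was 382.7, 369.6 and 371.8 FPKM on the SD side of KCl mice and 410.1, 395.0 and 377.0 FPKM on the other side. In optogenetic mice it was 375.0, 378.9 and 379.2 FPKM on the SD side and 378.8, 387.6 and 380.5 FPKM on the other side. The SD side was lower in 6 of 6 mice, by a ratio of 0.933 to 0.997. The log2 fold change was -0.04 (SE 0.02, 95% interval -0.09 to 0.01, limma adjusted p = 0.401) and was not called. In optogenetic sham mice Glul was 386.3, 405.7 and 417.1 FPKM, above each library of the SD side (-0.09, unadjusted p = 0.0379, adjusted p = 0.552), and in NaCl sham mice it was 378.1, 375.6 and 395.1 FPKM, which overlapped with the SD side.

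The remaining homeostatic genes ranged from 23.1 to 33.9 FPKM for Aqp4, from 133.3 to 175.7 FPKM for Aldoc, from 8.60 to 12.3 FPKM for Aldh1l1 and from 59.5 to 87.1 FPKM for S100b. Between the sides of the 6 mice they differed by 0.00 (Aqp4, 95% interval -0.08 to 0.09), 0.00 (Aldoc, -0.10 to 0.10), -0.04 (Aldh1l1, -0.15 to 0.07) and -0.03 (S100b, -0.15 to 0.09). In optogenetic mice Aqp4 was 23.3, 23.7 and 23.9 FPKM on the other side and 25.4, 25.7 and 29.5 FPKM in sham mice, which did not overlap (-0.18, SE 0.06, limma unadjusted p = 0.0224, adjusted p = 0.843). Aldh1l1 was 8.60 to 10.5 FPKM in the KCl system and 10.6 to 12.3 FPKM in the optogenetic system, tables that were deposited separately, and this difference was not tested.

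The calls of the members were counted beside those of all genes. For the SD side against NaCl sham, 0 of 10 members were called by limma, against 0.0694% of all genes, and 2 had an unadjusted p under 0.05 (Cd14, higher, and Vim, lower), as did 7.92% of all genes. For the SD side against the other side of KCl mice 0 of 10 were called, against 0.347%, and 1 had an unadjusted p under 0.05 (Cd14), as did 9.88% of all genes. For the other side against NaCl sham the counts were 0 of 10, against 0.00771%, and 1 (Vim), against 5.60%. With light, 0 of 10 were called for the SD side against sham, against 0.477%, with 2 at an unadjusted p under 0.05 (Cd14 and Glul), against 8.73%. For the SD side against the other side 0 of 10 were called, against 0.531%, with 1 (Cd14), against 8.72%, and for the other side against sham 0 of 10, against 0.00769%, with 2 (Serpina3n and Aqp4), against 5.80%. The p and q columns of the authors' deposited tables likewise hold no member with q under 0.05 in these 6 comparisons, and a p under 0.05 for 0 to 2 members in each.

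Groups that did not overlap were counted in the same way, in either direction. With KCl these were 2 members for the SD side against sham (13.0% of all genes), 1 for the SD side against the other side (17.2%) and 1 for the other side against sham (10.7%). With light they were 2 members (14.5%), 1 (14.9%) and 3 (10.9%) in the same order of comparisons. The difference between the KCl and optogenetic effects was called by limma for 0 of 10 members, against 0% of all genes, both for the SD side against sham and for the SD side against the other side, and no member had an unadjusted p under 0.05 there, while 715 and 794 of 12930 genes did.

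The median log2 fold change of the 4 reactivity genes over the 6 mice was -0.03, that of the 6 homeostatic genes -0.01 and that of all genes -0.02. Without KCl mouse 3 the medians of the reactivity and homeostatic genes were 0.07 and -0.03. Against sham the medians were -0.19, -0.02 and -0.03 with KCl, and -0.07, -0.10 and -0.02 with light. Without the low KCl library the KCl median of the reactivity genes was 0.06, so its sign rests on that library. The mean log2(FPKM + 0.5) of the reactivity genes minus that of the homeostatic genes was -3.73 to -3.14 on the SD side, -3.55 to -3.43 on the other side and -3.53 to -3.28 in sham mice with KCl. With light these ranges were -3.56 to -3.28, -3.75 to -3.57 and -3.86 to -3.34. The 2 sides of the optogenetic mice did not overlap. Without the low library the KCl sides did not overlap either, with -3.37 to -3.14 on the SD side. Without Cd14 the mean log2 level of the other 3 reactivity genes with light was 3.23 to 3.41 on the SD side and 3.10 to 3.37 on the other side, and these overlapped. With KCl it was 3.517, 3.535 and, in the low library, 2.898 on the SD side. The other side was at 3.424 to 3.518, so the KCl sides overlapped with and without the low library once Cd14 was left out.

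Further genes of reactivity were drawn from lists of mouse astrocytes after inflammation or ischaemia. The lists as used here leave out the members. Gfap, Vim, Serpina3n and Cd14 are therefore not counted in them, also where a published list holds them. Of 10 pan-reactive genes 5 were tested with KCl, 4 with light and 3 in the 6 mice, and none was called by limma or had an unadjusted p under 0.05 between the sides or against sham. Between the sides of the 6 mice, Hspb1, a small heat shock protein, differed by -0.07 (adjusted p = 0.779) and S1pr3, a sphingosine-1-phosphate receptor, by -0.09 (adjusted p = 0.742). Of 11 genes of the A1 list, described after inflammation, 10 were tested and none was called. In the 6 mice 1 had an unadjusted p under 0.05 by limma, against 14.3% of all genes: Fkbp5, a glucocorticoid-induced co-chaperone, at -0.22 (adjusted p = 0.255). Serping1, an inhibitor of complement activation, had the next smallest p (-0.14, adjusted p = 0.640). For the KCl SD side against sham 2 A1 genes had an unadjusted p under 0.05 by limma, against 7.92% of all genes. These were the class I antigen presentation genes H2-D1 (-0.25, adjusted p = 0.583) and H2-T23 (-0.26, adjusted p = 0.597).

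Of 11 further genes of the A2 list, described after ischaemia, 3 were tested and Ptgs2 rose. It was the 1 called by limma over the 6 mice, against 1.61% of all genes. Ptgs2 encodes the inducible cyclooxygenase, and neurons are a known source of it after activity, so its rise cannot be assigned to astrocytes here. It was 76.1, 43.8 and 63.6 FPKM on the SD side of KCl mice and 3.67, 2.86 and 4.34 FPKM on the other side, and with light 42.2, 57.4 and 86.1 against 2.46, 3.03 and 3.23 FPKM. The log2 fold change over the 6 mice was 4.01 (SE 0.11, limma adjusted p under 0.05 in each of 6 fits that left out 1 mouse). The call against NaCl sham (2.96, adjusted p = 0.0287) was lost in 6 of 9 fits that left out 1 library: without SD-side library 1 or 3, any of the other-side libraries or sham library 3, with the adjusted p reaching 0.126. It was also lost with a constant prior variance (0.0621) and in a fit of the 6 libraries compared (0.119). The 2 other A2 genes tested, S100a10 and Tm4sf1, differed by -0.04 and 0.04.

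**Figure D4:**
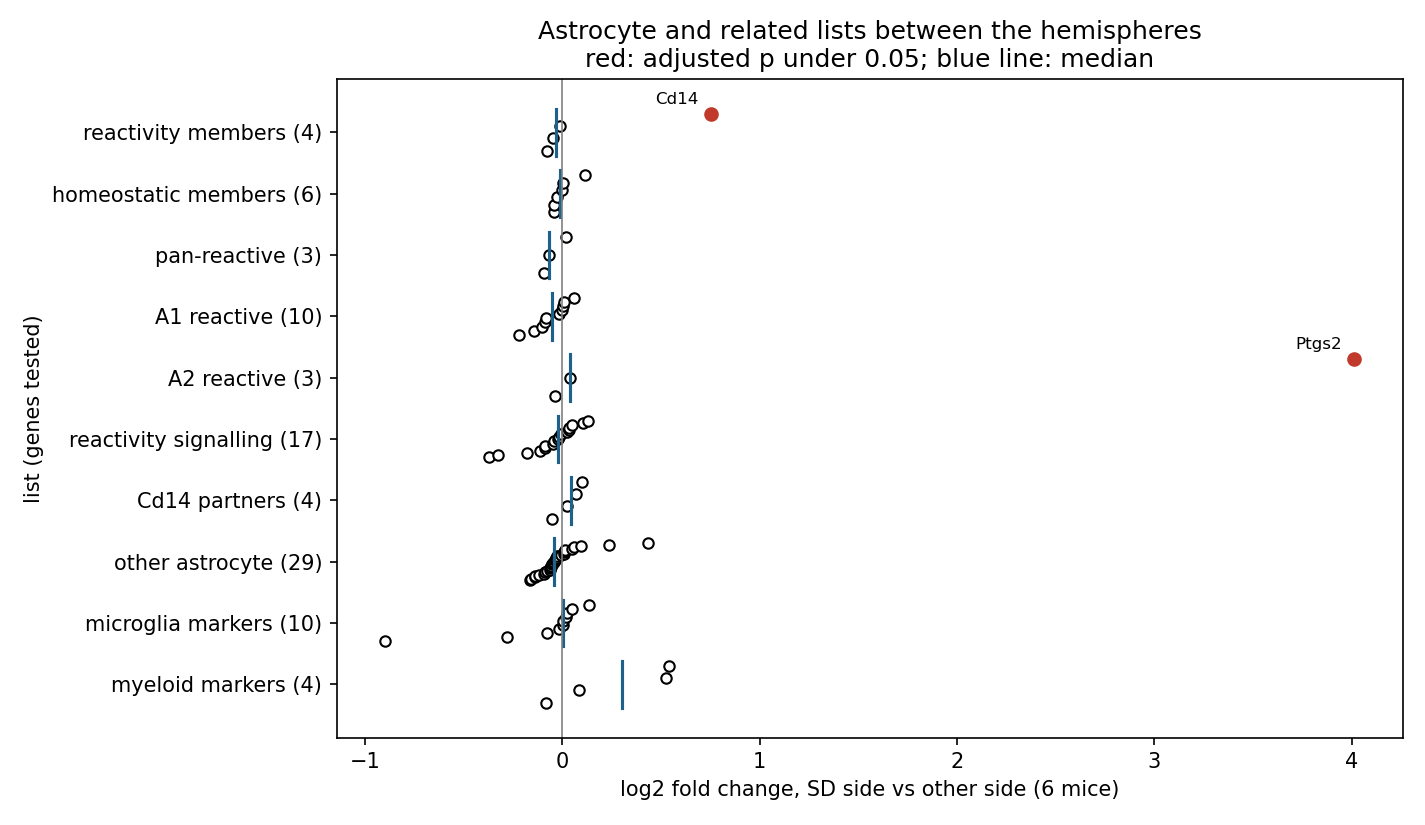
Log2 fold change between the sides of the 6 mice (x axis) for each tested gene of the lists (y axis, number of genes tested in parentheses), 1 point per gene, with a blue line at the median of a list. Cd14 at 0.76 and Ptgs2 at 4.01 are the genes of the plotted lists that passed the test, and the medians of the astrocyte lists lie close to 0.

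Of 29 further astrocyte genes, which include transporters, gap junction proteins and transcription factors, 29 were tested and 1 was called in 1 comparison. In that comparison, the SD side of optogenetic mice against sham, 0.477% of all genes were called by limma. Gja1, which encodes connexin 43, the main gap junction protein of astrocytes, was 13.8, 12.9 and 14.7 FPKM on the SD side of optogenetic mice, 19.7, 18.2 and 16.6 FPKM on the other side and 20.1, 18.4 and 20.6 FPKM in sham mice. The SD side lay below both. Of all genes, 14.5% did not overlap between the SD side and sham in either direction, and 14.9% between the sides. Gja1 fell by 0.50 on the log2 scale against sham (SE 0.08, limma adjusted p = 0.0319), and the difference from the other side was -0.38 (adjusted p = 0.112). The call was lost in 7 of 9 fits that left out 1 library (adjusted p 0.0308 to 0.132), and it held without other-side library 1 or 3. It was also lost with the replicate number as a block (adjusted p = 0.0739), with a constant prior variance (0.0568) and in a fit of the 6 libraries compared (0.0576). In the same comparison 5 of 5 red blood cell markers were lower at an unadjusted p under 0.05 by limma (median log2 fold change -1.09), against 8.73% of all genes. The 8 choroid and ependymal markers had a median of -0.88, with none called in either list. Their part in the Gja1 result was not tested. With KCl Gja1 was 19.3, 18.4 and 15.6 FPKM on the SD side and 16.7, 18.2 and 14.4 FPKM in sham mice, which overlapped.

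Over the 6 mice none of the 29 was called by limma, with 1 higher and 4 lower at an unadjusted p under 0.05, against 14.3% of all genes. The smallest p was that of Sox9, a transcription factor of astrocyte fate, which was 7.05, 9.17 and 7.79 FPKM on the SD side against 4.38, 5.17 and 5.36 FPKM on the other side with KCl. Of all genes, 17.2% did not overlap between the KCl sides in either direction. The sum of choroid and ependymal markers was also higher there, at 476.4 to 596.4 against 17.6 to 474.1 FPKM, and their part in the Sox9 values was not tested. With light Sox9 was 5.75, 8.54 and 8.19 against 5.94, 6.52 and 6.22 FPKM, so that these groups overlapped. The log2 fold change was 0.43 (SE 0.10, adjusted p = 0.0920). Mt3, a metal-binding metallothionein, differed by -0.14 (SE 0.04, adjusted p = 0.182).

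Genes of the signalling that drives reactivity, such as the receptors of the interleukin-6 family and endothelin, were tested for 17 of 19 list members. None was called by limma in the 6 mice. There 14.3% of all genes had an unadjusted p under 0.05, and in this list 2 did, both lower. These were Lifr, the receptor of leukaemia inhibitory factor (-0.18, adjusted p = 0.252), and Edn1, endothelin 1 (-0.37, adjusted p = 0.255). For the SD side of optogenetic mice against sham 2 were higher and 4 lower at an unadjusted p under 0.05, again with none called, and 8.73% of all genes had such a p. Nfia, a transcription factor of gliogenesis, had the smallest p there (-0.25, adjusted p = 0.348). Of 7 partners of Cd14 in lipopolysaccharide signalling 4 were tested and none was called or had an unadjusted p under 0.05. Ly96, the co-receptor that binds lipopolysaccharide, differed by 0.10 (adjusted p = 0.827) and Myd88, an adaptor of Toll-like receptors, by -0.05 (adjusted p = 0.842).

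The genes most like 3 of the members over the 18 libraries were taken by Pearson's correlation of log2(FPKM + 0.5), each system centred on its own mean, among 10005 genes. The libraries share tissue dissection and group, and these values are descriptions. For Gfap they were Cnih2 (0.90), Npy2r (0.86) and Fabp7 (0.86), for Cd14 Plpp6 (0.93), Dstn (0.93) and Irs2 (0.92), and for Slc1a2 1110051M20Rik (0.77), Atf7 (0.75) and Nedd4l (0.74). Among the members, Gfap correlated with Serpina3n at 0.75 and with Aqp4 at 0.67.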

How the data were processed

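Poly(A) RNA of cortex was sequenced from stranded libraries, per the labels' protocols. The FPKM values were computed by the authors with StringTie against GRCm38, per the submitters' processing notes, with no version given. The tables hold no read counts, so depth is unknown and no counting interval is given. The deposited tables also hold the authors' log2 fold change, fold change as a ratio, p-value and q-value columns, and 2 group columns headed FPKM that were checked to be mean log2(FPKM + 1). In each of 6 tables, 1 emptied line was left out. Python 3.11.15 with pandas 2.3.3 read the tables.

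For each system, limma 3.58.1 (R 4.3.3) fitted log2(FPKM + 0.5) of the 9 libraries together, for genes whose mean reached 0.5 FPKM, and let the prior variance follow the mean. P-values were Benjamini-Hochberg adjusted over all genes, with calls under 0.05. The sides of 6 mice were compared with the mouse as a block, and the effects of both systems in 1 fit of 18 libraries. Fold changes on this scale understate those of low genes such as Cd14. Errors are SE for fold changes. The fits were tested on simulated data.

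Left and right libraries of 1 number are the sides of 1 mouse, per the titles. Their deviations from the group means correlated at 0.04 to 0.07 with KCl and at -0.09 to 0.14 with light. The 3 libraries of a group come from 3 mice. Sham mice share only the number. A side and the sham library of its number correlated at -0.01 to 0.22 with KCl and at -0.18 to 0.16 with light. These ranges cover those of the sides of a mouse. The members, lists and tests were chosen with earlier results of these data known. All 10 members are named. From each further list the called genes, or the 2 with the smallest p where none was called, are named for the comparison described. Alternatives were other pseudocounts (0.1 and 1), filters (none and a mean of 2 FPKM), scalings, prior, blocks, fits of 6 libraries, leave-one-out of libraries or mice, and the authors' own p and q.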

Additional observations from a re-analysis of the deposited data

Results flagged for a closer look

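Of 10 sets of 6 differences between the sides of a mouse, 1 per member, 1 held a mouse far from the others. The rule flags about 1 set in 20 by chance and was applied to 10 sets, so 1 flag is not set apart from chance. Aldoc was higher on the SD side in 1 of 6 mice: in optogenetic mouse 3 it was 156.7 FPKM there and 133.3 FPKM on the other side, a log2 difference of 0.23, while the other 5 mice had ratios of 0.945 to 0.995.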

How the results depend on the processing

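Fold changes of the members were recomputed 1751 times over the alternatives. Of these, 1726 counted as unchanged: not called in either fit and within 1 SE of the reported value, or called in both at any size. Uncalled values moved by more than 1 SE in 21 cases, and 4 lost the call of Cd14 between the sides while within 1 SE of its value. Cd14 kept its call at pseudocounts of 0.1 and 1 but moved by more than 1 SE, to 0.91 and 0.62 from 0.76 (SE 0.12). None was newly called, and 119 changed sign without a call involved. Between the sides of the 6 mice the number of members called was 0 with a filter at a mean of 2 FPKM, since Cd14 itself was then not tested, and 0 to 1 when 1 mouse was left out. The log2 fold change of Cd14 was 0.62 to 0.91 over all settings, with the lowest and highest value at a pseudocount of 1 and 0.1.

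A replicate block changed no call of a member: 0 members were called with it in the 6 comparisons within a system and in both differences between systems. With the system as a term in place of the mouse as a block, Cd14 in the 6 mice gave 0.76 (limma adjusted p = 0.00747). That fit does not pair the sides of a mouse. Depth is unknown, so the counting error of low genes such as Cd14 could not be given.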
